A study of Mus musculus with 9 samples.

Results

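Promoter peaks are the places where the glucocorticoid receptor (GR) or the mineralocorticoid receptor (MR) was found on chromatin close to the start of a protein-coding gene. A peak was counted as a promoter peak when its summit lay within 500 bp of the transcription start site (TSS) of any transcript of a protein-coding gene in the mm10 annotation. Of 30371 peaks in 4 lists, 2000 were promoter peaks. They comprised 820 GR peaks and 878 MR peaks after corticosterone (CORT), and 33 GR peaks and 269 MR peaks after CORT had been washed out. Peaks in the bodies of Nr3c1 and Nr3c2, the genes of GR and MR, were set aside because transfected receptor cDNA can produce them. These were 19 and 30 peaks of the GR and MR lists after CORT, and 18 and 30 of the washout lists.

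The cells were N2A (Neuro2A) mouse neuroblastoma cells, transiently transfected with EGFP-tagged GR and mCherry-tagged MR together, so that both receptors were present in every group and neither was at its natural level. The study's methods give rat cDNAs for both, whereas the deposited design text speaks of mouse GR and MR. ChIP-nexus, a chromatin immunoprecipitation in which an exonuclease trims the DNA back to the bound protein, was carried out with antibodies to the tags. The groups were vehicle, 100 nM CORT for 20 min (here CORT), and 100 nM CORT for 20 min followed by washing and 40 min without hormone (here washout), each with an input without immunoprecipitation. The 3 replicates of each group had been combined into 1 list of peaks, so there is no spread between replicates. All intervals below are 95% intervals over peaks, cover counting error only, and compare libraries rather than conditions, and no p-value is given.

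A promoter is the stretch of DNA around a TSS on which RNA polymerase II and its general factors assemble, and in mammals many promoters are rich in the dinucleotide CpG. GR and MR are hormone-activated transcription factors that recognise the same palindromic element, the glucocorticoid response element (GRE), as dimers, and they can also be held at DNA through other proteins. Both bind CORT, MR with the higher affinity, and much of the chromatin they occupy is in enhancers away from promoters.

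The sites below show what the sequence under strong promoter peaks looked like, from a full GRE to none. The GRE consensus was AGAACA, 3 bases of any kind, then TGTTCT, with 12 fixed positions. The stretches of 29 bases are from mm10 in the direction of the gene, and capitals mark the fixed positions that match the consensus. They are the match nearest the summit, with at most 3 mismatches, at leading promoter peaks, and were picked to span the range of matches after their values were seen.
P4ha2: acagctcAGAACAggcTGTTCTgcctgct
Pnmt: agaggccAGAACAgagTGTcCTttctgga
Lcn2: caggctcAGAACAgggTGTcCTgttcttc
Plec: atgtgggAGgACAtgtTGTTCTaggctcc
Tns2: ctggccggGgACAcagTGTTCTccactgg
Psme4: ttggcctAGAACtcttTGTgCTcatactg
Nfkbia: gaggggaAGtACAgggcGTTCcgggcggc
Pmm1: tagcgtgAGAACgcggcGTTCcaggcaga
Rpl27: cggaaccgGAACgctcTGTTCctgtctgc

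The site at P4ha2, a subunit of the collagen prolyl hydroxylase, matched all 12 fixed positions. It lies at chr11:54113178-54113206 on the plus strand, in an intron, with its centre 11 bp upstream of a TSS of the gene. Those at Pnmt (chr11:98386082-98386110, plus strand, outside coding genes), Lcn2 (chr2:32388269-32388297, minus strand, outside coding genes) and Plec (chr15:76208299-76208327, minus strand, intron) had 1 mismatch each. Pnmt makes adrenaline from noradrenaline, Lcn2 is a carrier of iron-binding siderophores and Plec is the cytoskeletal linker plectin. Tns2, a focal adhesion protein (chr15:102102642-102102670, plus strand, intron), and Psme4, a proteasome activator (chr11:30771448-30771476, plus strand, outside coding genes), had 2 mismatches. Nfkbia, the inhibitor of NF-kappaB (chr12:55492015-55492043, minus strand, intron), Pmm1, a phosphomannomutase (chr15:81960310-81960338, minus strand, intron), and Rpl27, a protein of the large ribosomal subunit (chr11:101442220-101442248, plus strand, outside coding genes), had 3. Nfkbia and Pmm1, with 3 mismatches each, led the GR and MR promoter peaks after CORT.

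Longer windows of 101 bases around the summit show the other letters of such promoters. In these the capitals also mark words of other promoter and enhancer factors, searched on either strand. The GC box, bound by Sp1-type factors, was GGGCGG. The CCAAT box was these 5 letters, and the core word of ETS factors was CCGGAA. The AP-1 word was TGACTCA with either C or G in the middle. These words may overlap each other and the GRE match.
Nfkbia: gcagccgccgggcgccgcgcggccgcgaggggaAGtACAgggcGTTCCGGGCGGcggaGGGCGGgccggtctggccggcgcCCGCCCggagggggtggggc
Pnmt: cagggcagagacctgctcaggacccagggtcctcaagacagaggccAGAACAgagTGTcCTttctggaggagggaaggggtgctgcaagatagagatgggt
Upf3a: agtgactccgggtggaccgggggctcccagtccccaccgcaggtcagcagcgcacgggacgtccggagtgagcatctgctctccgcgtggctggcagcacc
The window at Nfkbia (chr12:55491969-55492069, minus strand, around the MR summit after CORT) held GC boxes and an ETS word that overlaps the GRE match. That at Pnmt (chr11:98386043-98386143, plus strand, around the MR washout summit) held a GRE match and none of the other motifs. That at Upf3a, a factor of nonsense-mediated mRNA decay (chr8:13785370-13785470, plus strand, around the GR washout summit), held none of the motifs searched, although it was among the 4 strongest promoter peaks of GR after washout.

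Promoter windows made up 2.02% of the genome and held a larger share of the peaks of every list. Of the GR peaks after CORT, 7.75% (7.25 to 8.27) were promoter peaks, 3.84-fold the share of the genome (3.59 to 4.10). Of the MR peaks after CORT, 6.01% (5.64 to 6.41) were, 2.98-fold (2.79 to 3.17). The intervals of the receptors did not overlap, and the GR share was the higher. After washout the shares were 14.5% (10.5 to 19.6) of the 228 GR peaks and 5.54% (4.93 to 6.22) of the 4855 MR peaks. The input, which has no immunoprecipitation, was also above the genome at these places, since 3.81% to 4.16% of its border pairs lay there, 1.89-fold to 2.06-fold the genome share. The interval of each receptor list lay above that of each input list.

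**Figure D1:**
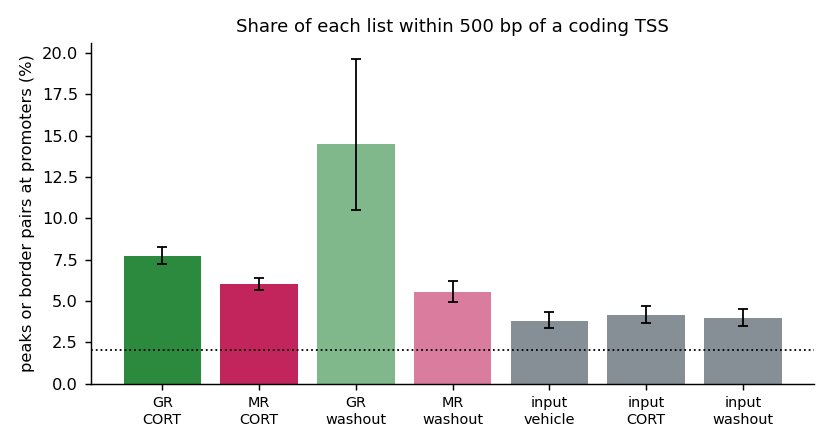
Percentage of each list's peaks, or of the input's border pairs, that lay within 500 bp of a TSS of a protein-coding gene. Bars are the shares, error bars their 95% Wilson intervals, and the dotted line is the 2.02% of the genome within the same windows; GR after washout has the highest share, 14.5%, and the widest interval.

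After vehicle, 9 GR peaks and 2 MR peaks lay at promoters, and all were at 6 genes. These were the predicted genes Gm21738, Gm10801, Gm10800, Gm11168 and Gm10717, and Ank1, which encodes an ankyrin of the red cell membrane skeleton. Their sequence windows were 70.2% to 100% repeat-masked. The same places were hit after hormone, and they mattered most where the list was short. Of the 33 GR promoter peaks after washout, 8 (24.2%) lay on a vehicle peak and 9 (27.3%) on an input border pair, compared with 19.5% and 17.4% of the other peaks of that list. In the other lists 0.456% to 2.60% of promoter peaks lay on a vehicle peak. Without peaks on input border pairs, 24 of 185 GR washout peaks were promoter peaks, 13.0% (8.88 to 18.6).

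Summits were densest beside the TSS. The first 100 bp downstream held 1.18% of the GR and 0.876% of the MR peaks after CORT. From 500 to 600 bp downstream the shares were 0.605% and 0.411%. The median position of promoter summits was 1 bp downstream of the nearest TSS for GR and 5.5 bp upstream for MR after CORT. Upstream lay 49.6% of GR and 51.6% of MR promoter summits. These medians and upstream shares do not show centring, because summits spread evenly over the symmetric window would give like values. Within 100 bp of the TSS lay 29.8% of the GR and 26.7% of the MR promoter summits after CORT. After washout these shares were 30.3% for GR and 27.5% for MR. The density of summits fell away on both sides of the TSS, as in the plot of summit positions.

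**Figure D2:**
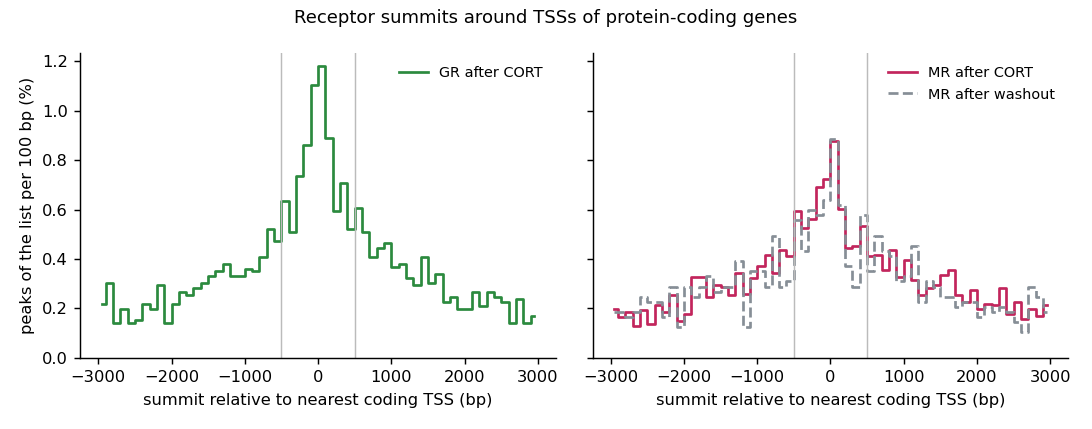
Position of peak summits relative to the nearest TSS of a protein-coding gene, in the direction of the gene, as percentage of the list per 100 bp. The left panel shows GR after CORT, the right MR after CORT (solid) and after washout (dashed), and grey lines mark the limit of 500 bp; GR after washout is not drawn because it has 33 promoter peaks, and in each curve the highest density is beside the TSS.

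Many of these promoters were alternative starts within a gene. Of the promoter peaks, 431 of 820 for GR and 427 of 878 for MR after CORT were at the 5′ end of a gene, and the others were at internal TSSs. By position, 324 GR promoter summits were in introns of coding genes, 212 in noncoding parts of exons, 96 in coding exons and 188 outside coding genes. For MR the counts were 386, 200, 112 and 180. Retention, sharing and the GRE did not differ beyond their intervals between gene 5′ ends and internal TSSs in the CORT lists. The difference (5′ ends minus internal) was −0.890 percentage points (−3.75 to 1.83) for GR retention and −4.24 (−9.72 to 1.30) for MR retention.

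The limit of 500 bp cuts through a gradual decline in density. Between 401 and 500 bp from a TSS there were 123 GR and 165 MR peaks after CORT, with median −log10 p of 8.93 and 9.13. Between 501 and 600 bp there were 114 and 121 peaks, with medians of 9.20 and 8.599. Just inside the limit, 80 of 123 GR peaks (65.0%) were shared with MR and 9 (7.32%) retained. Just outside it these were 60 of 114 (52.6%) and 3 (2.63%). Of the MR peaks, 89 of 165 (53.9%) were shared with GR and 46 (27.9%) retained just inside. Just outside these were 60 of 121 (49.6%) and 22 (18.2%). At this edge the percentages were higher inside for both receptors, but the counts are small and no interval was computed. Over all promoter peaks GR sharing and MR retention within strength bands were lower than elsewhere, as described below.

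Peak strength was read from −log10 p against input, the statistic with which peaks had been called. Because it depends on how deeply a library was sequenced, promoter and other peaks were compared within a list, and values of single genes from different lists are given side by side as descriptions. Promoter peaks were about as strong as the others. Its median was 8.73 at promoters and 8.66 elsewhere for GR after CORT, and 9.17 in both classes for MR after CORT. The probability that a promoter peak was the stronger of a pair, where 0.5 means no difference, came to 0.514 (0.493 to 0.534) in the GR and 0.525 (0.505 to 0.545) in the MR list after CORT. In the washout lists it was 0.553 (0.444 to 0.661) with GR and 0.540 (0.503 to 0.576) with MR. Median widths were 121 bp for GR and 61 bp for MR at promoters, against 121 bp and 63 bp elsewhere.

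The washout comparison asks which receptor sites were still called after the hormone was removed. For GR, promoter peaks were retained more often than other peaks. Of the 820 GR promoter peaks after CORT, 32 (3.90%) were still called, by an overlap of at least 1 bp with a GR washout peak, compared with 176 of 9763 others (1.80%), where 1.97% of the whole list was retained. The difference was 2.1 percentage points (0.940 to 3.67). Retention rose with strength, so peaks were also compared within 10 bands of −log10 p, and the Mantel-Haenszel odds ratio was 2.18 (1.46 to 3.25). GR promoter peaks that lay on vehicle peaks or input pairs moved with this result. Without peaks on input border pairs, 23 of 810 promoter peaks (2.84%) and 1.44% of the others were retained, a difference of 1.40 points (0.421 to 2.80). Without mostly repeat-masked windows, an exclusion chosen after the data were seen, the difference was 1.23 points (0.242 to 2.66).

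For MR, promoter peaks were not retained more often. Of the 878 MR promoter peaks, 198 (22.6%) were overlapped by an MR washout peak, compared with 24.5% of the others and 24.4% of the whole list. The difference was −1.99 points (−4.73 to 0.981), an interval that includes 0. Within strength bands the odds ratio of being retained, promoter against other peaks, was 0.765 (0.634 to 0.923). With only peaks of −log10 q of at least 5 it was 0.861 (0.673 to 1.10), an interval that includes 1. The comparison of the receptors themselves, the unbanded MR odds ratio over the GR odds ratio, was 0.405 (0.267 to 0.614). The promoter effect on retention thus differed between GR and MR in these lists, and cannot be told apart from the depths of the libraries, which the files do not give. The interval of this ratio treats the GR and MR lists as independent, although many sites were in both.

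**Figure D3:**
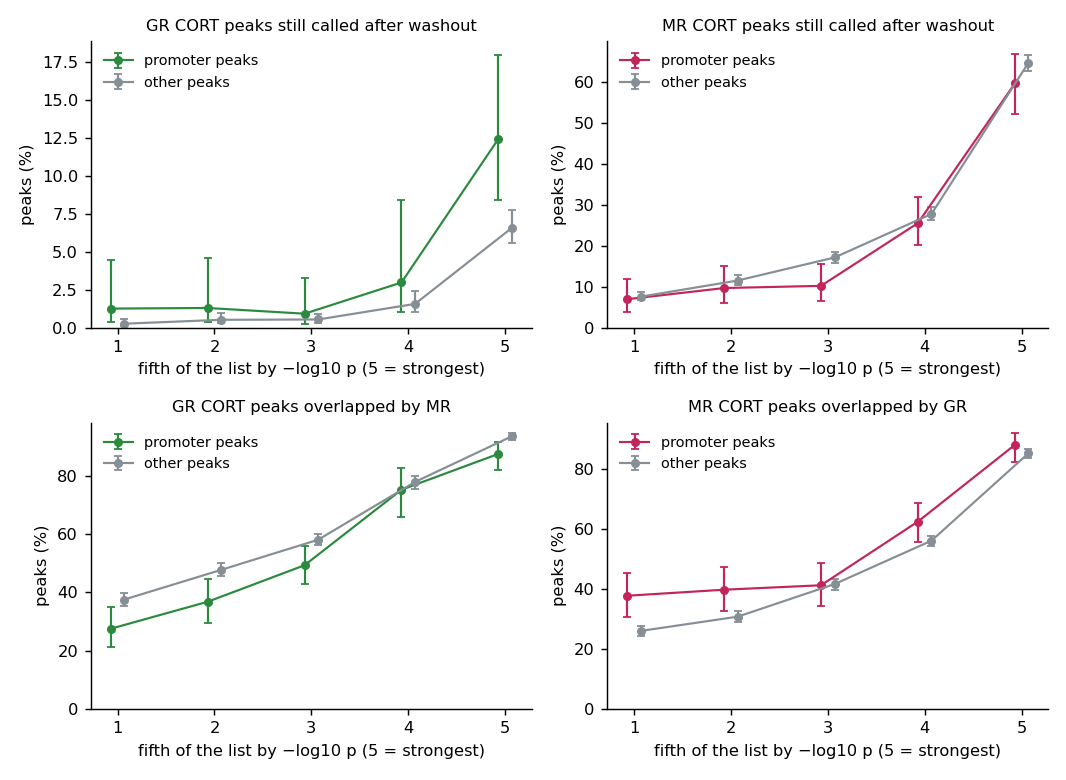
Upper panels give the percentage of CORT peaks still called after washout and lower panels the percentage overlapped by the other receptor, for promoter peaks (coloured) and other peaks (grey) in 5 bands of −log10 p from weakest (1) to strongest (5), with 95% Wilson intervals. In band 5, 12.4% of GR promoter peaks and 6.57% of other GR peaks were retained, whereas for MR the values were 59.5% and 64.6%; bands differ in size because many peaks share a value.

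In the strongest of 5 bands, 23 of 185 GR promoter peaks (12.4%, 8.43 to 18.0) and 6.57% of the other peaks were retained. Of the 32 GR promoter peaks retained, 23 were in this band. For MR, 100 of 168 promoter peaks in the strongest band (59.5%) and 64.6% of the others were retained, a difference of −5.04 points (−12.8 to 2.35).

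Seen from the washout lists, most promoter peaks had been present after CORT. Of the GR washout promoter peaks, 29 of 33 (87.9%) were overlapped by a GR CORT peak, with 89.0% in the whole list. Of the MR washout promoter peaks, 198 of 269 (73.6%) were, with 75.5% in the whole list. Neither differed from the other peaks beyond its interval. For MR, 71 promoter peaks were called after washout and not after CORT. A GR CORT peak had been at 25 of these 71 places (35.2%), compared with 27.3% of the like MR peaks elsewhere, a difference of 7.93 points (−2.51 to 19.8).

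The comparison of the receptors after CORT asks how often they were found at the same place. For GR, promoter peaks were shared less often than other peaks. An MR CORT peak overlapped 447 of the 820 GR promoter peaks (54.5%) and 61.5% of the others, with 61.0% in the whole list. The difference was −7.01 points (−10.6 to −3.49), and the odds ratio within strength bands was 0.658 (0.560 to 0.774). For MR the direction was the opposite. Largely the same overlaps are counted from both sides, so the 2 directions are not separate results. At promoters they are divided by 820 GR and 878 MR peaks, and elsewhere by 9763 and 13730. A GR CORT peak overlapped 477 of the 878 MR promoter peaks (54.3%) and 47.0% of the others, with 47.5% in the whole list, a difference of 7.30 points (3.89 to 10.7). The odds ratio within bands was 1.31 (1.13 to 1.52), and with only peaks of −log10 q of at least 5 it was 1.15 (0.933 to 1.42), which includes 1. The share at promoters was thus close to 54% from either side, whereas elsewhere GR peaks were more often shared than MR peaks.

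After washout the GR list was short and few places could be shared. An MR washout peak overlapped 22 of 33 GR promoter peaks (66.7%), with 74.1% in the whole list, a difference from other peaks of −8.72 points (−26.6 to 6.34). A GR washout peak overlapped 24 of 269 MR promoter peaks (8.92%), with 3.75% in the whole list, and the difference from other peaks was 5.48 points (2.57 to 9.52). Without peaks on input border pairs it was 3.28 points (0.926 to 6.86), and without mostly repeat-masked windows 3.45 (0.975 to 7.17).

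Shared promoter peaks were retained more often than those called for 1 receptor. Among MR promoter peaks, 168 of 477 that were shared after CORT (35.2%) and 30 of 401 that were not (7.48%) were retained, a difference of 27.7 points (22.6 to 32.6). For GR these shares were 5.82% and 1.61%, a difference of 4.21 points (1.61 to 6.92). Peaks outside promoters went the same way, with 40.1% and 10.7% for MR and 2.75% and 0.293% for GR. Strong peaks are both shared and retained more often, and this split was not matched for strength. Within shared sites, promoter peaks of MR were retained less often than other peaks by 4.89 points (35.2% and 40.1%), and the interval of promoter minus other was −9.21 to −0.344. Within shared sites of GR, promoter peaks were retained more often, by 3.07 points (1.199 to 5.67). Where both receptors were called at a promoter, their summits were 19 bp apart at the median (17 to 23 bp, 447 GR peaks), compared with 26 bp (25 to 28) elsewhere.

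The sequence under promoter peaks was poorer in GREs than that under other peaks, and much richer than windows centred on gene starts. Within 100 bp of the summit, 245 of 820 GR promoter peaks (29.9%) and 38.4% of the other GR peaks held a GRE with at most 3 mismatches, with 37.8% in the whole list. The difference was −8.54 points (−11.7 to −5.18). For MR after CORT the counts were 294 of 878 (33.5%) and 40.4%, with 39.9% in the whole list, a difference of −6.88 points (−10.0 to −3.58). With at most 2 mismatches the differences were −2.65 points for GR and −2.16 for MR (−4.01 to 0.0204), so that the MR interval then included 0. Of windows of the same length centred on all 21938 gene starts, 7.15% held one. After washout 10 of 33 GR promoter peaks (30.3%, whole list 34.4%) and 106 of 269 MR promoter peaks (39.4%, whole list 45.8%) did. The MR difference was −6.75 points (−12.6 to −0.625), and it no longer excluded 0 under 6 of the 12 alternatives run.

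Promoter motifs were commoner at promoter peaks than elsewhere. GC boxes were in 23.5% of the GR promoter windows after CORT and in 5.42% of the others, a difference of 18.1 points (15.3 to 21.2). ETS words were in 12.9% and 3.97%. Both were less common than in windows centred on all gene starts, where 40.0% held a GC box and 15.0% an ETS word. Those windows were not matched to the peaks in position. Promoter summits after CORT lay a median of 193.5 bp (GR) and 213 bp (MR) from a TSS, and many of those TSSs were internal. CCAAT boxes were in 17.6% of GR promoter windows, 19.7% of the others and 28.2% of all gene starts. The words for AP-1 and for GATA factors (AGATAA) went the other way, with GATA words in 4.88% of GR promoter windows and 12.02% of the others. The MR list after CORT gave like values, with GC boxes in 21.9% and 4.63% and GATA words in 7.06% and 12.9%.

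**Figure D4:**
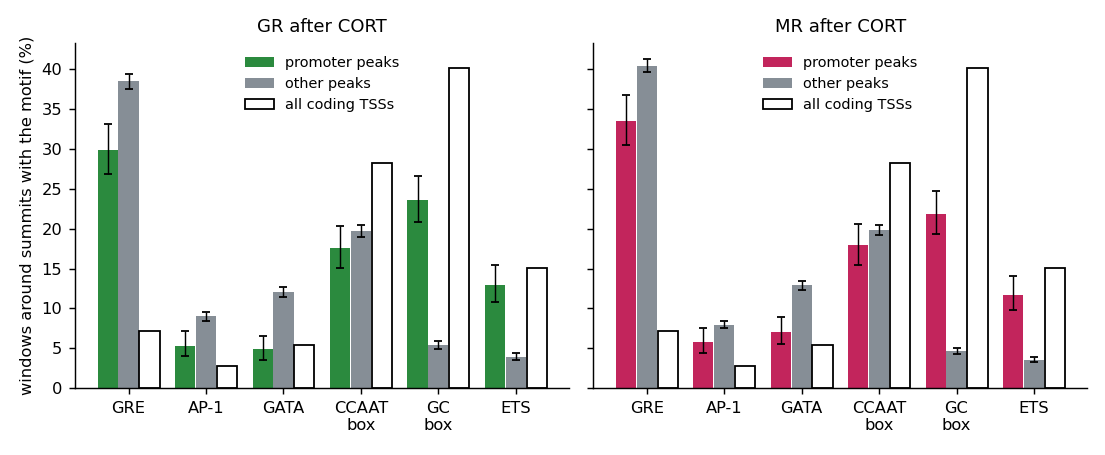
Percentage of windows of 201 bp that held each motif at promoter peaks (coloured), at other peaks of the same list (grey) and at the starts of all protein-coding genes (white), with 95% Wilson intervals for the peaks. Peak windows are centred on summits and the white ones on gene starts, so positions are not matched. Promoter peaks sit between the other classes for the GRE, AP-1, GC box and ETS. For GC boxes the GR values are 23.5%, 5.42% and 40.0%.

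CpG content of promoter peaks after CORT also lay between the classes, again with peak windows centred on summits and the reference windows on gene starts. The median ratio of observed to expected CpG was 0.475 at GR and 0.401 at MR promoter peaks after CORT, 0.220 and 0.219 at other peaks, and 0.5998 at all gene starts. At GR promoter peaks after washout it was 0.725, and it was not computed without the peaks at repeat-rich genes. At MR promoter peaks after washout it was 0.416. Some 43.3% (39.9 to 46.7) of the GR promoter peaks after CORT had a TSS in a CpG-island-like window of 1001 bp. The shares were 36.7% (33.6 to 39.9) of the MR promoter peaks after CORT and 37.5% of all TSSs. After washout 11 of 33 GR promoter peaks (33.3%, 19.8 to 50.4) had such a TSS. Among MR promoter peaks those at CpG-island-like TSSs were shared more often, by 7.88 points (1.04 to 14.5). For GR the same difference was −6.71 points (−13.5 to 0.160).

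Promoter peaks with a GRE were more often shared in the GR list and more often retained in the MR list, and so were peaks outside promoters. These splits were not matched for strength. GR promoter peaks with a GRE were shared in 67.8% of cases and those without in 48.9%, a difference of 18.9 points (11.6 to 25.8). MR promoter peaks with a GRE were retained in 29.6% of cases and those without in 19.01%, a difference of 10.6 points (4.61 to 16.8). Outside promoters GR sharing was 68.4% with and 57.1% without a GRE, a difference of 11.3 points (9.31 to 13.2). There MR retention was 29.8% and 20.9%, a difference of 8.92 points (7.43 to 10.4). For retention of GR promoter peaks the values were 3.67% and 4.00%, a difference of −0.327 points (−2.92 to 3.10). When GR peaks with a GRE were compared with each other, 67.8% were shared at promoters and 68.4% elsewhere, a difference of −0.650 points (−6.91 to 5.09). Among GR peaks without a GRE the difference in sharing, promoter minus other, was −8.27 points (−12.5 to −4.004). Whether these differences differ from each other was not tested.

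Genes with a promoter peak numbered 771 for GR and 778 for MR after CORT, 3.51% and 3.54% of the 21951 protein-coding genes. After washout they numbered 30 for GR (0.137%) and 246 for MR (1.12%). In any of the 4 lists there were 1110 genes. Both receptors had a promoter peak after CORT at 471 of them, GR alone at 300 and MR alone at 307. Most genes had a single promoter peak, and 79 for GR and 98 for MR after CORT had more than 1.

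The 10 strongest promoter peaks of GR and the 10 strongest of MR after CORT were all overlapped by a peak of the other receptor. Of the GR peaks 5 were retained after washout, and of the MR peaks 9. Nfkbia, a long-known glucocorticoid target, had the strongest GR promoter peak, at chr12:55491813-55492171 with its summit 159 bp upstream of an internal TSS. Its −log10 p after CORT was 55.7 with GR and 44.5 with MR, and after washout 14.2 and 42.5. Pmm1 had the strongest MR promoter peak, at chr15:81960253-81960458, with 54.7 for MR and 38.4 for GR after CORT, and 23.6 and 7.44 after washout.

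Several leading promoters had no GRE within 3 mismatches. Kctd17, an adaptor of a ubiquitin ligase, was called at its 5′ end in all 4 lists, with 39.6 for GR and 44.9 for MR after CORT, and 11 and 10.9 after washout. Ptpa, an activator of protein phosphatase PP2A, reached 50 for MR and 17.2 for GR after CORT, and 12.7 for MR after washout, with no GR washout peak. Crispld2, a secreted protein, was the strongest MR promoter after washout, at 45.6, and was at 43.1 after CORT. Its GR values were 21.9 after CORT and 9.59 after washout. Rnaseh2a, the catalytic subunit of ribonuclease H2, was at 38.6 for MR and 23.4 for GR after CORT.

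Other leading promoters are given side by side, with the limit that GR and MR lists have different depths. Lcn2, whose GRE is printed above, was at 38.0 for MR and 7.38 for GR after CORT, and had no peak of either receptor after washout. Pnmt was at 20.0 for MR and 21.99 for GR after CORT, and at 26.9 for MR after washout, when GR had no peak there. Tns2 was at 28.2 and 39.3 for MR before and after washout, and at 31.8 and 9.79 for GR. Mrtfb, a coactivator of serum response factor, was at 33.2 and 43.5 for MR, and at 26.7 for GR after CORT with no washout peak. F2rl2, a thrombin receptor of the protease-activated family, was at 33.2 and 27.6 for MR, and at 20.3 and 9.10 for GR.

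At each of the following promoters an MR peak was called after washout, and a GR peak at Phyhd1 alone. The washout lists held 228 GR and 4855 MR peaks. P4ha2, with the full GRE, was at 33.5 for GR and 31.4 for MR after CORT, and at 22.6 for MR after washout, with no GR washout peak. Rrm2b, a subunit of ribonucleotide reductase, was at 33.5 for GR and 27.9 for MR, and at 29.1 for MR after washout. Phyhd1, of the phytanoyl-CoA dioxygenase family, was at 29.8 for GR and 35.0 for MR, and at 7.11 and 34.02 after washout. Gm16223 (35.2 for GR and 40.4 for MR), Zfp365 (31.8 and 19.6), Fam117b (30.1 and 22.9) and Ccng1, which encodes cyclin G1 (23.2 and 43.1), had an MR washout peak and no GR washout peak. So did Sardh, sarcosine dehydrogenase (18.1 and 36.4), and Map3k6, a MAP kinase kinase kinase (22.6 and 28.3).

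Because the 10 strongest promoter peaks of each CORT list were all shared, those without the other receptor necessarily ranked below them. The strongest of these unshared peaks are named here. For GR they were at Gm10800 (19.8), Gm10717 (18.7), Psme4 (17.2), Kmt2b, a histone methyltransferase (15.7), and Dus1l, a tRNA dihydrouridine synthase (15.5). The first pair are repeat-rich predicted genes with vehicle peaks. At Psme4 an MR peak of 15.1 was called after washout, although none was called after CORT. For MR they were at Gm826 (26.2), Mitf, a transcription factor of melanocytes (23.7), Gm10717 (23.7), AI661453 (18.0) and Zfp532 (18.0). An MR peak was retained at Gm826 (10.9) and Zfp532 (7.69).

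GR promoter peaks after washout were at 30 genes. Of these, 6 were called on a vehicle peak or an input border pair, namely Ank1, Gm10717, Gm10800, Gm10801, Gm11168 and Gm21738. Of the 10 strongest GR washout promoter peaks, 5 were at these repeat-rich genes, led by Gm10800 at 28.5. Of the other 24 genes, 17 had a promoter peak in all 4 lists. Among these 17 the GR −log10 p was lower after washout than after CORT at 12 and the MR value at 14, a description that the depth of each list can shift. The 24 genes were called with GR after CORT except Nudt9, an ADP-ribose hydrolase, and Vamp4, a vesicle SNARE protein, each at 9.10 after washout.

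**Figure D5:**
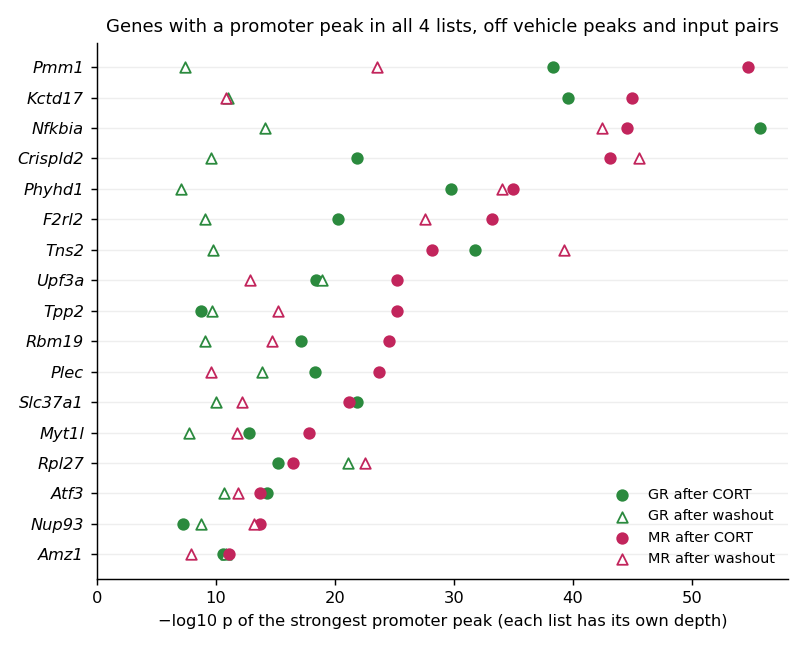
The −log10 p of the strongest promoter peak of GR (green) and MR (red) after CORT (filled circles) and after washout (open triangles), for the 17 genes with a promoter peak in all 4 lists away from vehicle peaks and input border pairs. Values of different lists have different depths; the GR washout value lies to the left of the GR CORT value at 12 genes, and Rpl27 is among the 5 where it does not.

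Rpl27 was the strongest GR washout promoter outside the repeat-rich genes. Its −log10 p after CORT was 15.3 with GR and 16.5 with MR, and after washout 21.1 and 22.6. Upf3a was at 18.4 and 18.9 for GR and at 25.2 and 12.9 for MR after CORT and after washout. Plec was at 18.4 and 13.9 for GR and at 23.7 and 9.57 for MR. Parvb, the focal adhesion protein beta-parvin (12.8), and Slc30a5, a zinc transporter (12.8), were called for GR after washout and not for MR. Amz1, a metallopeptidase, was called in all lists at 7.89 to 11.1.

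Gene lists by function are given beside the shares of all coding genes, which were 3.51% for GR and 3.54% for MR after CORT, and 0.137% and 1.12% after washout. The lists were chosen with earlier results of these data known, so a share above these values is a description and not independent support. Of 20 glucocorticoid-induced regulators, 4 had a GR promoter peak (20%) and 2 an MR promoter peak (10%) after CORT, and 1 (5%) and 3 (15%) after washout. These shares were above those of all coding genes, and rest on 1 to 4 genes each. The members were Fkbp5, the receptor cochaperone (7.38 for GR after CORT, 37 bp downstream of a TSS, in no other list), Per1, Nfkbia and Arl4d, a small GTPase (9.99 for GR after CORT and 8.28 for MR after washout). The other 16 regulators, Sgk1, Tsc22d3 and Dusp1 included, had no promoter peak in any list. Of 19 clock genes, 2 had a GR (10.5%) and 3 an MR promoter peak (15.8%) after CORT, again above the shares of all coding genes. After washout none had a GR and 3 an MR promoter peak (15.8%). These shares rest on 2 or 3 genes whose summits lay near the limit of 500 bp. Shares with a shorter limit were not computed for gene lists. Per1 is counted both here and among the glucocorticoid-induced regulators.

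The clock genes with promoter peaks encode repressors of the circadian loop. Per1 was at 17.8 for GR and 15.0 for MR after CORT and at 16.2 for MR after washout, with summits 459 to 470 bp downstream of a TSS. Per2 was at 17.2 for GR and 14.9 for MR after CORT and at 7.69 for MR after washout. Its summits lay 449 to 497 bp downstream of a TSS. Cry2 had MR peaks only, at 11.98 after CORT and 14.7 after washout, both with summits 492 bp upstream. No GR washout peak was called at the promoters of these 3 genes.

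The remaining lists had few promoter peaks, and their shares are to be read against the 3.51% and 3.54% of all coding genes. Of 17 KLF transcription factors, Klf10 (5.88%) had a GR peak (6.15 after CORT). Of 10 DUSP phosphatases that act on MAP kinases, Dusp6 (10%) had an MR peak (9.82 after CORT). Of 14 AP-1 and immediate early genes, Junb had a GR peak (11.4 after CORT). Atf3, a stress-induced factor of the same list, was called in all 4 lists, with 14.3 for GR and 13.8 for MR after CORT, and 10.7 and 11.8 after washout. The shares of this gene list were 14.3% for GR and 7.14% for MR after CORT, and 7.14% for each after washout. They were above those of all coding genes, which were 0.137% and 1.12% after washout, and rest on 1 or 2 genes each.

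Of 22 chaperone genes, Fkbp5 was the only member with a promoter peak in these lists, 4.55% for GR after CORT. Of 80 cytosolic ribosomal protein genes, 3 had a GR and 3 an MR promoter peak after CORT, which is 3.75% for each. Among them were Rpl27, Rpl31 (6.41 for GR) and Rpl28 (9.17 for MR). Of 67 histone genes, Hist2h2aa1 (1.49%) had an MR peak (5.20 after CORT). None of 11 factors of sympathetic neuroblasts had a promoter peak.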

How the data were processed

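The authors trimmed the ChIP-nexus reads, mapped them with Bowtie 2 to GRCm38 (mm10), dropped PCR copies by random barcode, combined 3 replicates and called peaks with MACS2 (2.1.1.20160309 per the submitters' processing notes) against input at a false discovery rate of 0.05, and border pairs with MACE. Each deposited peak carries a −log10 p and a −log10 q, the latter under a heading for fold enrichment. Fold enrichment itself was to be the measure of strength, and −log10 p was used instead. Of the border pairs only those of input were used, as positions. The peak files hold no read counts, so depth was not analysed here, and which weak peaks were called depends on it. The 9 samples are 1 per group.

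TSSs were those of protein-coding transcripts in GENCODE M21. Sequence was read from GRCm38.p6 on chromosomes 1 to 19, X and Y with pysam 0.24.0, and promoter and other peaks were compared with Wilson and Newcombe intervals and Mantel-Haenszel odds ratios over 10 bands of −log10 p (Python 3.11.15, scipy 1.17.1), tested on simulated data. Peaks overlapped when they shared 1 bp. A CpG-island-like window had over 50% GC and an observed over expected CpG of over 0.6. The genes named are those at the 10 strongest promoter peaks of each CORT list and of the MR washout list, at the 15 strongest of GR after washout, at the 5 strongest of each CORT list without the other receptor, and members of the 9 gene lists with a promoter peak. Genes named for sites in all lists and for sequences were added after their values were seen. The members and lists were chosen with earlier results of these data known. Alternatives changed the promoter distance, the TSS set, the threshold, the overlap, the motif and the peaks left out.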

Additional observations from a re-analysis of the deposited data

Results flagged for a closer look

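The promoter effect on retention was marked because it differed between the receptors by an interval on the difference itself. The ratio of the MR to the GR odds ratio of being retained, promoter against other peaks, was 0.405 (0.267 to 0.614), from 32 of 820 GR and 198 of 878 MR promoter peaks retained. This interval treats the GR and MR lists as independent, although 447 of the 820 GR promoter peaks overlapped an MR CORT peak. Over the 11 alternatives run the ratio stayed between 0.398 and 0.491. The GR washout list held 228 peaks and the MR washout list 4855, and the part of this gap in the result was not tested. No spread over samples could be examined, with 1 list per group.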

How the results depend on the processing

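Of 267 values recomputed under alternatives, 237 kept their direction and their side of 0 (or of 1 for a ratio) or stayed within the main interval. The share of promoter peaks followed the definition. With 250 bp it was 4.78%, 3.43%, 10.1% and 3.32% for GR and MR after CORT and GR and MR after washout. With 1000 bp it was 12.3% and 9.95% after CORT and 9.27% for MR after washout, and with gene 5′ ends only 4.07%, 2.92%, 7.46% and 2.37%. The probability that an MR CORT promoter peak was the stronger was 0.557 at 250 bp. With gene 5′ ends only the MR retention difference came to exclude 0 (−4.17 points). With −log10 q of at least 5 the banded odds ratios for MR retention (0.861) and MR sharing (1.15) no longer excluded 1. The GRE difference no longer excluded 0 for MR after washout with gene 5′ ends only (−6.81), without vehicle peaks (−6.02), without chromosome 8 (−5.85), with at most 2 mismatches (−1.31), within 50 bp (−2.65) and without repeat-masked windows (−5.57), nor for MR after CORT with at most 2 mismatches (−2.16). For GR after washout it changed sign without input pairs (2.18), with at most 2 mismatches (0.948) and without repeat-masked windows (3.06), and excluded 0 with at most 4 (−26.9). The difference in washout peaks already called changed sign for GR at 1000 bp (2.05) and with an overlap of 50% of the shorter peak (0.233), and for MR at 1000 bp (0.295) and with −log10 q of at least 5 (1.26). The cause was not tested. GR retention and GR sharing after CORT kept their side of 0 and 1 throughout. GR sharing after washout kept its sign, but its interval included 0 in every setting. No paired analysis was possible because each group is 1 list. Depth was not analysed here, and a missing weak peak does not show absence.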
